A study of Mus musculus with 6 samples.

Results

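The genes described here encode the translocases that carry proteins into mitochondria: the Tomm genes of the outer membrane and the Timm genes of the inner membrane and the space between the membranes. They were taken by symbol, as every gene of the deposited table named Timm or Tomm followed by a number, which gave 25 of 22173 symbols, 10 Tomm and 15 Timm. The series compared livers of 3 mice given DDK, which its title calls a limonoid, with livers of 3 mice given vehicle, to ask how the compound acts in metabolic dysfunction-associated steatohepatitis. All 6 mice were wild type and ate the HFHC diet for 16 weeks from 6 weeks of age, and received DDK or vehicle for the last 4 weeks. The diet and the compound are named only by these abbreviations, and the sources used here do not give sex, strain, dose or batch. Whole liver was sequenced, so every value is a mixture over hepatocytes and other liver cells. The libraries held 26576291 to 30237490 fragments in DDK and 33963898 to 36105315 in vehicle.

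Most mitochondrial proteins are made in the cytosol and must be imported. The TOM complex is the common entry gate, with Tomm20, Tomm22 and Tomm70a as receptors, Tomm40 as the pore, and Tomm5, Tomm6 and Tomm7 as small subunits that help to assemble and stabilise it. From there, proteins with a cleavable presequence pass through the TIM23 complex, built on Timm23 and Timm17 with Timm50 as receptor and Timm44 as the anchor of the import motor. Carriers of the inner membrane are instead led by small TIM chaperones to the TIM22 complex.

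Timm23, the channel-forming subunit of the presequence translocase, stood 3.28-fold lower in DDK livers on the FPKM scale, and the receptor Tomm20 and the TIM22 subunit Timm29 also fell, while 11 other import genes rose. Of 23 import genes that passed the filter on low values (an FPKM, fragments per kilobase scaled to library size, of at least 0.5 in at least 3 libraries), 11 rose and 3 fell at an adjusted p under 0.05 in limma's test across 10681 genes. Of all genes tested, 10.2% rose and 30.3% fell, so 47.8% of the import genes rose against 10.2% of all genes and 13.0% fell against 30.3%. The median log2 fold change of FPKM + 1 was 0.33 over the 23 genes and -0.23 over all genes. Leaving out DDK replicate 1 lowered the number that rose to 6 (6.01% of all genes rose in that fit), DDK replicate 2 to 5 (5.71%), vehicle replicate 2 to 7 (6.64%) and vehicle replicate 3 to 6 (6.02%), so calls were lost among all genes too. The other 2 members, Timm8a2 and Tomm20l, were below the filter.

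**Figure D1:**
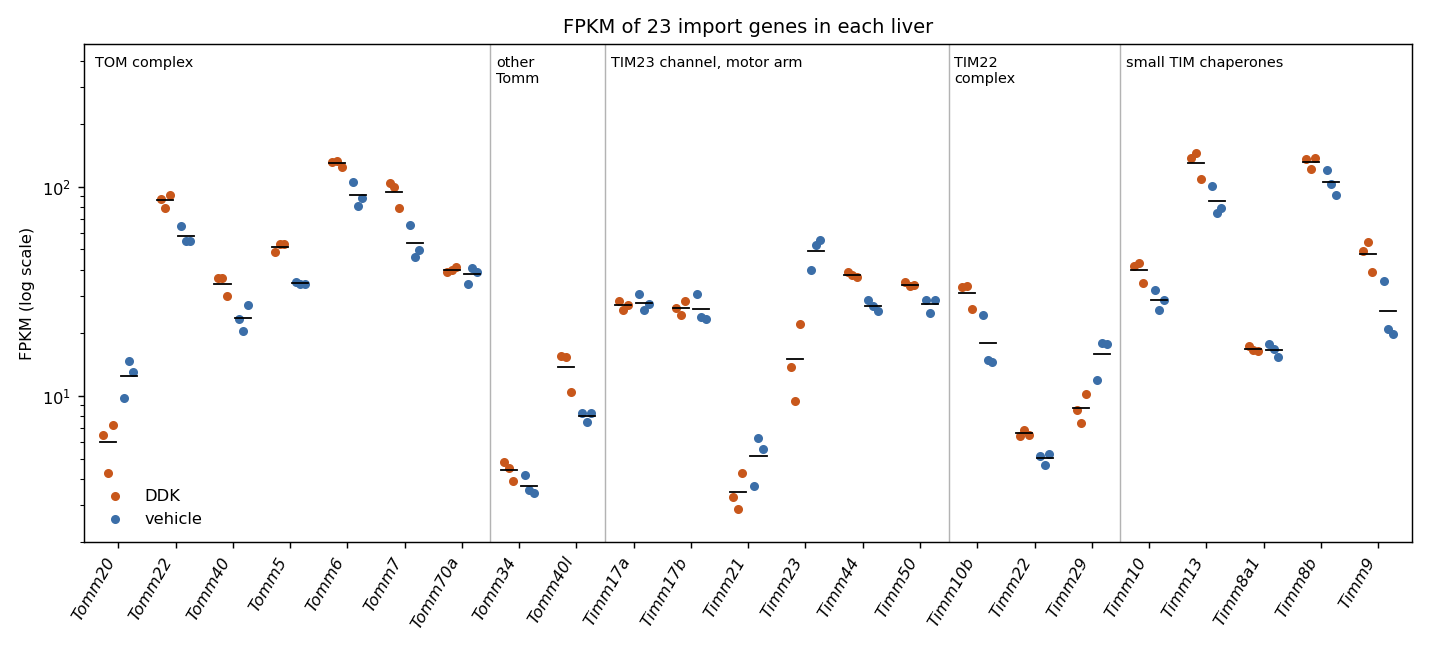
FPKM (log scale) of the 23 import genes that passed the filter, with 1 point per liver, DDK left of vehicle for each gene, and a black line at the group mean. Timm23, Tomm20 and Timm29 sit lower in all 3 DDK livers than in any vehicle liver, and 14 genes sit higher in all 3 DDK livers than in any vehicle liver.

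Start regions are shown for the 3 genes that fell and for Timm9, the gene with the largest increase among the 23 that passed the filter. Each is the RefSeq window of 300 bases (250 before to 50 after the start, GRCm38.p6), read 5′ to 3′ on the strand of the gene. Timm23 is at chr14:32201842-32202141 on the minus strand, Tomm20 at chr8:126945872-126946171 on the minus strand, Timm29 at chr9:21592472-21592771 on the plus strand and Timm9 at chr12:71136626-71136925 on the minus strand. Capitals mark matches to motifs of factors known to act on nuclear genes of mitochondria or on growth: an ETS site as bound by GABPA (CCGGAAGT) written here as its reverse complement (ACTTCCGG) where it lies on the other strand, and an E-box (CACGTG).
Timm23: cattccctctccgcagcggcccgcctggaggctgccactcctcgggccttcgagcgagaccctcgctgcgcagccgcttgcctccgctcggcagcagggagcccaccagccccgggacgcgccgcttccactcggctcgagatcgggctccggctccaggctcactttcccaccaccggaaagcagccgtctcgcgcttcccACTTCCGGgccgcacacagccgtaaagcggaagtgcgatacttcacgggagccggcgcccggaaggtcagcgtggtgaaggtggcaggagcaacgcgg
Tomm20: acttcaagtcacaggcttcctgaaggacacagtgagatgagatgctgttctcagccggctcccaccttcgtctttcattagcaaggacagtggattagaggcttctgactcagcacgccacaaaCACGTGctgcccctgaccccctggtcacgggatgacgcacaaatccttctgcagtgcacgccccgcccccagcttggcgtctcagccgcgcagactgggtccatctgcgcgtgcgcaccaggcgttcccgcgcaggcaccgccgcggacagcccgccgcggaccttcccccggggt
Timm29: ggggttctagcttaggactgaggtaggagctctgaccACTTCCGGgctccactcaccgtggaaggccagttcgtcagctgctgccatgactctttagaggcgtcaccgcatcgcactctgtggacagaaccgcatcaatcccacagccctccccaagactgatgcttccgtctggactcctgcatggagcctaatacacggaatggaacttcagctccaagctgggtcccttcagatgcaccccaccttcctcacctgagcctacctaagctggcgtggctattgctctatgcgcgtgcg
Timm9: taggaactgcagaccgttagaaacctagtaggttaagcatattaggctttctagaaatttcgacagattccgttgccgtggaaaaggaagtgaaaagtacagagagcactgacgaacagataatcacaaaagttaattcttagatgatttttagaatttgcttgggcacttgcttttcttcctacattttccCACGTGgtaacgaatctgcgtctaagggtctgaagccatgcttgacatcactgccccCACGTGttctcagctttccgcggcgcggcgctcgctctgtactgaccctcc

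Timm23 and Timm29 held the ETS letters, and Tomm20 and Timm9 the E-box, which Timm9 held at more than 1 place. The RefSeq table had windows for 22 of the 25 members, and Timm21, Tomm7 and Tomm40l had none. The ETS letters, on either strand, were in 6 of the 22 (Timm10, Timm10b, Timm23, Timm29, Timm8a2 and Tomm70a), against 4.31% of 27025 genes, and the E-box in 5 of the 22, against 8.09%. NRF1 letters (GCGCATGC) were found in Timm13 alone (3.05% of all genes), YY1 letters (AAGATGGC) in Timm50 alone (3.19%), and the CRE letters (TGACGTCA) in none of the 22 (2.03%). The ETS letters occurred in 2 of the 9 genes that rose and had a window and in 2 of the 3 that fell. The median GC content was 58.3% in the members' windows and 52.7% in all windows. A match describes the letters only.

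Timm23 (chromosome 14, 32180162 to 32201898 on GRCm38) had an FPKM of 13.7, 9.46 and 22.0 in DDK livers 1 to 3, against 39.9, 52.3 and 55.6 in vehicle livers 1 to 3. The highest DDK liver was well below the lowest vehicle liver. These values rest on 457, 292 and 773 recovered fragments in DDK and on 1676, 2077 and 2193 in vehicle. The means were 15.04 ± 6.38 in DDK and 49.3 ± 8.24 in vehicle (SD, n = 3 each), a log2 fold change of -1.71 ± 0.26 (SE, 95% confidence interval -2.28 to -1.14, limma adjusted p = 0.00168). This was the 88th lowest fold change of the 10681 genes tested. The call held in all 16 alternative fits, with log2 fold changes from -2.01 to -1.41. Timm23 has 6 loci of at least 90% identity over 200 bases or more in GENCODE M21, of which Gm10273 matches 1121 of the 1173 transcript bases at 99.9% identity. The sources used here do not say how fragments that fit several loci were counted, so the level of Timm23 cannot be told apart from that of these copies.

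Within the same channel, the partner subunits did not follow Timm23. Timm17a, which pairs with Timm23, had 28.4, 25.6 and 27.0 FPKM in DDK and 30.6, 25.6 and 27.3 in vehicle. Its log2 fold change was -0.04 with a 95% confidence interval of -0.32 to 0.24 (adjusted p = 0.816). Timm17b, the X-linked paralog, had 26.2, 24.4 and 28.5 FPKM in DDK and 30.6, 23.9 and 23.2 in vehicle (log2 fold change 0.03, interval -0.28 to 0.35, adjusted p = 0.862). For both genes the groups overlapped, and neither interval reaches the change of Timm23. The FPKM ratio of Timm23 to Timm17a was 0.481, 0.369 and 0.814 in DDK livers, against 1.31, 2.04 and 2.03 in vehicle livers. Timm23 thus stood below Timm17a in every DDK liver and above it in every vehicle liver.

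Timm44, which tethers the motor chaperone to the channel, rose: it had 39.1, 37.7 and 36.8 FPKM in DDK and 28.6, 26.9 and 25.4 in vehicle (log2 fold change 0.47 ± 0.12, adjusted p = 0.0116). The groups were fully apart. The call was lost under TPM (adjusted p = 0.11) and without DDK replicate 1 (0.055) or vehicle replicate 3 (0.0524). Timm50, the presequence receptor, had 34.8, 33.4 and 33.7 FPKM in DDK and 28.7, 24.8 and 28.7 in vehicle, also without overlap, but did not pass (log2 fold change 0.30 ± 0.12, adjusted p = 0.0691). Its adjusted p was 0.0105 with median-ratio scaling, 0.0176 with quantile normalization and 0.0378 without vehicle replicate 1. Timm21, which links TIM23 to the outer membrane side and to respiratory chain assembly, had 3.29, 2.89 and 4.28 FPKM in DDK and 3.72, 6.25 and 5.56 in vehicle. Its groups overlapped through vehicle replicate 1 (log2 fold change -0.45 ± 0.19, adjusted p = 0.0870), and without that liver it passed (0.0123), as it did under TPM (0.0345).

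Of the 3 Timm genes of the TIM22 complex, which inserts metabolite carriers into the inner membrane, 1 rose, 1 fell and 1 did not pass. Timm29 (chromosome 9, 21592722 to 21595970) had 8.52, 7.44 and 10.2 FPKM in DDK, against 11.9, 17.8 and 17.6 in vehicle. Every DDK liver was below every vehicle liver (means 8.71 ± 1.37 and 15.8 ± 3.35, SD, n = 3 each, log2 fold change -0.78 ± 0.18, adjusted p = 0.00905). Median-ratio scaling gave -0.49 and length correction -0.50, both smaller in size, with the call kept. Timm10b, the small TIM that docks on this complex, had 33.0, 33.4 and 26.1 FPKM in DDK, against 24.2, 14.8 and 14.6 in vehicle (log2 fold change 0.78 ± 0.20, adjusted p = 0.0129). The lowest DDK liver was just above vehicle replicate 1. Its call was lost without a filter (0.0505), without DDK replicate 2 (0.0561) and without vehicle replicate 3 (0.0584), and its exons overlap those of Gm45799 by 376 bases. Timm22, the channel subunit, had 6.45, 6.85 and 6.51 FPKM in DDK and 5.15, 4.66 and 5.29 in vehicle, without overlap (log2 fold change 0.33 ± 0.13, adjusted p = 0.0637). Its adjusted p was 0.00803 with median-ratio scaling, 0.00706 with quantile normalization, 0.00654 with the length correction and 0.0382 without vehicle replicate 1.

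The small TIM chaperones, which escort hydrophobic proteins across the intermembrane space, gave 3 genes that rose of 5 tested, and none that fell. Among all genes 10.2% rose and 30.3% fell. The median log2 fold change of the 5 genes was 0.45, against -0.23 for all genes. After length correction 2 of the 5 rose, and their median was -0.030, against -0.01 for all genes. Timm9 (chromosome 12, 71123173 to 71136684) had 49.3, 54.2 and 38.9 FPKM in DDK, against 35.3, 20.8 and 19.7 in vehicle (means 47.4 ± 7.84 and 25.3 ± 8.72, SD, n = 3 each, log2 fold change 0.92 ± 0.22, adjusted p = 0.00999). Timm10, its partner in the hexameric chaperone, averaged 39.9 ± 4.63 FPKM in DDK and 28.8 ± 3.10 in vehicle (log2 fold change 0.45, adjusted p = 0.0275). Timm13, which works with Timm8 proteins, had 137, 145 and 109 FPKM in DDK, against 101, 74.3 and 79.0 in vehicle (log2 fold change 0.61 ± 0.16, adjusted p = 0.0151). The groups did not overlap for any of these 3 genes, though vehicle replicate 1 stood nearest to the DDK livers each time.

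The Timm8 proteins did not pass. Timm8b averaged 132 ± 8.45 FPKM in DDK and 105 ± 14.6 in vehicle (log2 fold change 0.33 ± 0.14, adjusted p = 0.0762), and Timm8a1 averaged 16.7 ± 0.494 in DDK and 16.5 ± 1.17 in vehicle (log2 fold change 0.02, adjusted p = 0.907). Timm8a2 was listed at 0 in all 6 livers. The calls of Timm9 held in all alternatives. That of Timm10 ended under TPM (adjusted p = 0.175), after length correction (log2 fold change -0.03, 0.846) and when DDK liver 1 (0.0975), DDK liver 2 (0.113), vehicle liver 2 (0.0945) or vehicle liver 3 (0.0811) was left out. Timm13 lost its call without any of the same 4 livers (0.0532 to 0.0706). Timm8b passed as higher after median-ratio scaling (0.0226) and without vehicle replicate 1 (0.0158), and turned to -0.30 after length correction (0.0830).

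Timm8b lies head to head with Sdhd, a membrane anchor of the succinate dehydrogenase complex that the series title names, with 98 bases between the annotated starts on chromosome 9. Sdhd had 132, 112 and 165 FPKM in DDK and 176, 198 and 204 in vehicle (log2 fold change -0.51, adjusted p = 0.0274), while Timm8b stood at 136, 122 and 137 in DDK and 120, 103 and 91.1 in vehicle. The neighbours thus had opposite signs in FPKM, although only Sdhd passed. The sign of Timm8b turned after the length correction (log2 fold change -0.30, limma adjusted p = 0.0830). The difference between them was not tested.

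In the outer membrane, 5 of the 7 TOM complex genes rose and Tomm20 fell, where 10.2% of all genes rose and 30.3% fell. Under TPM 3 of the 7 rose (5.91% of all genes), after length correction 4 (16.1%) and after median-ratio scaling 6 (18.4%). Fits that each left out 1 liver gave 3 to 5 TOM complex genes that rose. Tomm20, the receptor for presequences (chromosome 8, 126930667 to 126945844), had 6.46, 4.28 and 7.28 FPKM in DDK, against 9.72, 14.7 and 13.0 in vehicle. No DDK liver reached a vehicle liver, and 926, 567 and 1097 fragments lay behind the DDK values and 1749, 2509 and 2202 behind the vehicle values. The means were 6.00 ± 1.55 in DDK and 12.5 ± 2.55 in vehicle (SD, n = 3 each, log2 fold change -0.95 ± 0.20, adjusted p = 0.00658). The call held in all 16 alternative fits, and the fold change was smaller, at -0.63, after length correction. Tomm20 has 10 similar loci in GENCODE M21, and the longest match covers 438 of its 4902 transcript bases. How fragments that fit these loci were counted is not known here either, and their part in the Tomm20 values was not tested.

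The other presequence receptor went the opposite way. Tomm22, which also holds the complex together, had 87.4, 79.4 and 91.3 FPKM in DDK, against 64.5, 54.6 and 55.1 in vehicle (log2 fold change 0.56 ± 0.13, adjusted p = 0.00804). Tomm70a, the receptor for carrier precursors, had 38.9, 39.8 and 41.1 FPKM in DDK and 34.3, 40.7 and 38.9 in vehicle. Its groups overlapped (log2 fold change 0.07, 95% confidence interval -0.20 to 0.34, adjusted p = 0.643), but it passed as higher after median-ratio scaling (0.38, adjusted p = 0.0449) and length correction (0.37, 0.0211), and had the opposite sign under TPM (-0.16, 0.359). The ratio of Tomm20 to Tomm22 FPKM was 0.0739, 0.0539 and 0.0797 in DDK livers, against 0.151, 0.270 and 0.236 in vehicle livers. No DDK ratio reached a vehicle ratio.

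The pore and the small subunits stood higher in DDK. Tomm40 had 36.4, 36.4 and 29.9 FPKM in DDK, against 23.3, 20.4 and 27.3 in vehicle (log2 fold change 0.52 ± 0.15, adjusted p = 0.0203). Its lowest DDK liver, replicate 3, was close to its highest vehicle liver. Tomm7 had 104, 99.1 and 78.8 FPKM in DDK, against 65.8, 45.8 and 49.97 in vehicle (log2 fold change 0.80 ± 0.17, adjusted p = 0.00603). Tomm5 had 48.4, 53.1 and 53.3 FPKM in DDK, against 35.1, 34.2 and 34.1 in vehicle (log2 fold change 0.57 ± 0.11, adjusted p = 0.00525). Tomm6 averaged 129 ± 4.28 FPKM in DDK and 91.3 ± 12.3 in vehicle (log2 fold change 0.50, adjusted p = 0.0150), and its exons overlap 859 bases of Gm21981. None of these genes overlapped between the groups.

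Of these calls, those of Tomm22 and Tomm7 held in all alternatives. Tomm40 lost its call under TPM (adjusted p = 0.131) and when DDK liver 1 (0.0782), DDK liver 2 (0.0843) or vehicle liver 2 (0.0734) was left out. Tomm5 lost it after length correction (log2 fold change 0.10, 0.557). Tomm6 lost it under TPM (0.0833), after length correction (0.0514) and when DDK liver 1 (0.0569), DDK liver 2 (0.0624), vehicle liver 2 (0.0575) or vehicle liver 3 (0.0586) was left out.

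**Figure D2:**
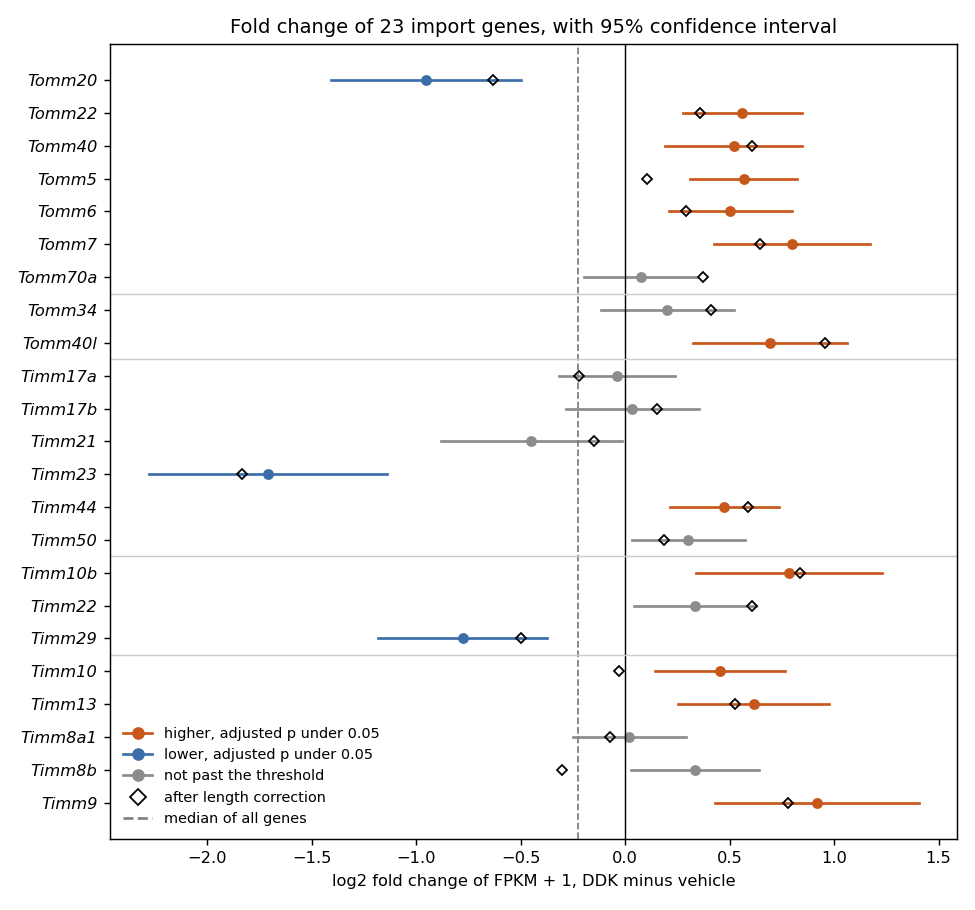
Log2 fold change of FPKM + 1 (DDK minus vehicle) of the 23 import genes, grouped from top to bottom as the TOM complex, other Tomm genes, the TIM23 channel and motor arm, the TIM22 complex and the small TIM chaperones. Bars are 95% confidence intervals from limma, diamonds the values after correction for gene length, and the dashed line the median of all genes at -0.23. Timm23 at -1.71 lies farthest from zero, and Tomm5, Tomm70a, Timm10 and Timm8b have their diamonds outside their bars.

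Of the Tomm genes outside the core complex, Tomm40l rose. This paralog of the pore had 15.4, 15.4 and 10.5 FPKM in DDK, against 8.23, 7.48 and 8.27 in vehicle (log2 fold change 0.69 ± 0.16, adjusted p = 0.00990), and lost its call only without DDK replicate 2 (0.0512). In GENCODE M21 it shares 3304 exonic bases on the opposite strand with Nr1i3, the xenobiotic receptor CAR, which had 113, 114 and 68.1 FPKM in DDK and 57.6, 31.5 and 46.8 in vehicle (log2 fold change 1.10, adjusted p = 0.00793). The library kit does not mark strand, so fragments of Tomm40l and Nr1i3 cannot be told apart there. Tomm34, a cytosolic co-chaperone despite its name, averaged 4.42 ± 0.460 FPKM in DDK and 3.71 ± 0.402 in vehicle and did not pass (log2 fold change 0.20, adjusted p = 0.277). Its adjusted p was 0.0433 with median-ratio scaling, 0.0347 with quantile normalization and 0.0431 with the length correction. Tomm20l, a paralog of the receptor, had 9, 4 and 4 fragments in DDK livers and 0 in each vehicle liver. With a limit of 3 fragments in place of the 0 of the vehicle group, it was 6.90-fold higher in DDK at equal depth. That limit covers counting error of the vehicle value only. It leaves out counting error of the DDK fragments and the spread between livers. Its exons overlap those of Timm9, which rose, by 49 bases on the opposite strand in GENCODE M21. Fragments of these genes cannot be told apart there either.

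Set side by side, 6 of 9 Tomm genes rose (66.7%) and 1 fell (11.1%), and 5 of 14 Timm genes rose (35.7%) and 2 fell (14.3%). Without vehicle replicate 1, 6 of 9 Tomm and 8 of 14 Timm genes rose, and without vehicle replicate 3, 5 and 1. The Tomm genes that rose include Tomm40l and Tomm6, whose exons overlap those of Nr1i3 and Gm21981. The Timm genes that rose include Timm10b, whose exons overlap those of Gm45799. These genes also enter the sums below. Of all genes 10.2% rose and 30.3% fell. The median log2 fold change was 0.52 for Tomm and 0.32 for Timm genes, which is 0.75 and 0.55 above the median of all genes. The difference of 0.20 between the families had no p, since genes are not replicates of a condition. The median deviation from the vehicle mean, on the log2 scale, was 0.53, 0.54 and 0.35 for Tomm genes and 0.32, 0.25 and 0.28 for Timm genes in DDK livers 1 to 3. In vehicle livers 1 to 3 it was 0.039, -0.082 and -0.016 for Tomm genes and 0.11, -0.096 and -0.053 for Timm genes. The Tomm median was the higher in all 3 DDK livers and in vehicle livers 2 and 3. Summed over members, Tomm genes had 473, 464 and 441 FPKM in DDK and 350, 302 and 318 in vehicle, and Timm genes 575, 562 and 531 in DDK and 510, 437 and 437 in vehicle. The ratio of the Tomm sum to the Timm sum was 0.824, 0.826 and 0.830 in DDK livers, against 0.687, 0.691 and 0.728 in vehicle livers. The Timm sum includes Timm23, with means of 15.04 FPKM in DDK and 49.3 in vehicle, which cannot be told apart from its copies. The ratio thus depends in part on this gene, and a ratio without it was not computed.

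**Figure D3:**
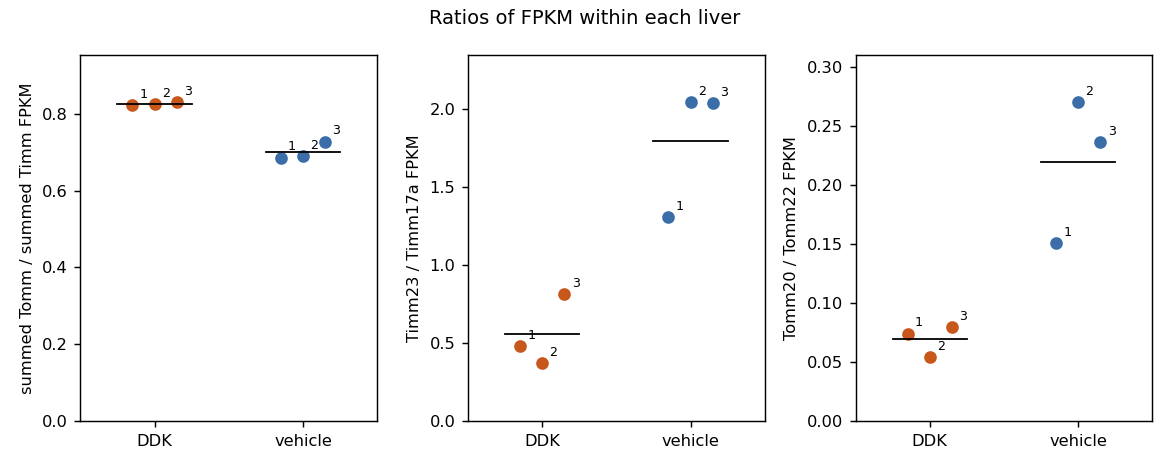
Ratios of FPKM within each liver for summed Tomm over summed Timm genes (left), Timm23 over Timm17a (middle) and Tomm20 over Tomm22 (right), with DDK left of vehicle, replicate numbers beside the points and a line at the group mean. DDK livers sit at 0.824 to 0.830, 0.369 to 0.814 and 0.0539 to 0.0797, and vehicle livers at 0.687 to 0.728, 1.31 to 2.04 and 0.151 to 0.270. The Timm sum in the left panel includes Timm23, and the Tomm sum includes Tomm40l and Tomm6.

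The families also differed in length, with a median of 1666 bp for Tomm genes and 1225.5 bp for Timm genes. Across all genes tested, the Spearman correlation of length and log2 fold change was -0.25. The Tomm genes, with the higher median fold change, were thus the longer family, opposite to this trend. Among all genes tested, the median log2 fold change was 0.41 for the 665 genes under 1000 bp and 0.02 for the 949 genes of 1000 to under 1500 bp, against -0.30 for the 2980 genes of 3000 to under 5000 bp. The import genes were short, with a median of 1226 bp against 3201 bp for all genes, and 20 of the 23 were shorter than that. Across the 23 genes the Spearman correlation of length and log2 fold change was -0.39, which is a description over genes of the same 6 libraries. Timm23 (1162 bp) lay far below its length class, and Tomm20 (4986 bp) and Timm29 (3170 bp) lay below theirs. After the length correction, 11 import genes rose and 3 fell, where 16.1% and 17.3% of all genes did. The 3 that fell and 8 of those that rose were called in both fits, while Timm10, Tomm5 and Tomm6 lost the call and Timm22, Tomm34 and Tomm70a gained it. The medians were then 0.37 for Tomm genes and 0.06 for Timm genes, against -0.01 for all genes, so the gap between the families widened to 0.31.

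**Figure D4:**
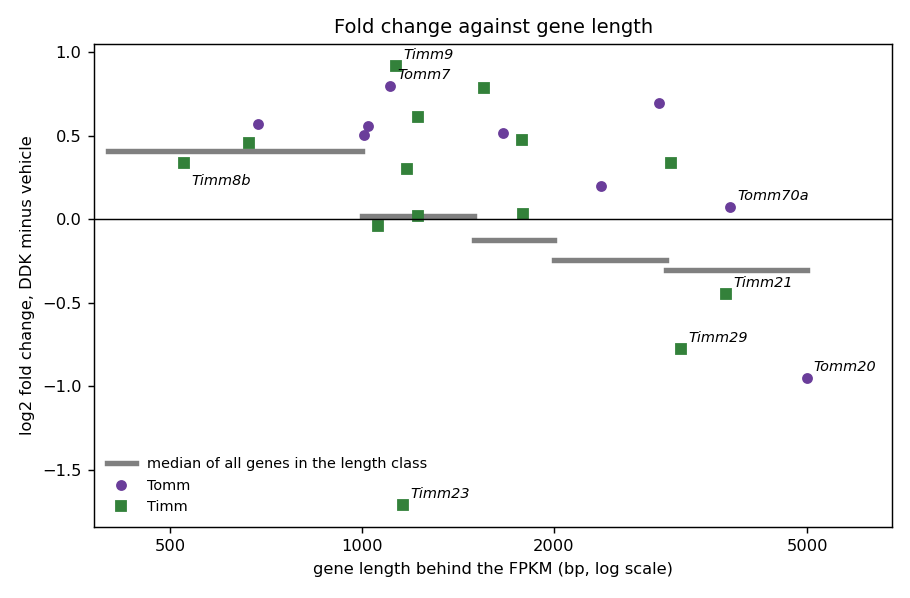
Log2 fold change of FPKM + 1 (DDK minus vehicle) against gene length (bp, log scale) for 9 Tomm genes (circles) and 14 Timm genes (squares), with grey bars at the median of all genes in each length class. The grey bars step down from 0.41 in the shortest class to -0.30 at 3000 to under 5000 bp, and Timm23 at 1162 bp and -1.71 lies far below its bar.

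The scaling between libraries moved the counts as well. After median-ratio scaling, which brought the median of all genes to 0.00, 16 import genes rose and 3 fell, where 18.4% and 15.4% of all genes did. Rescaled to TPM, with the median of all genes at -0.45, 7 import genes rose and 4 fell, where 5.91% and 46.1% did. As deposited, 14 of the 23 genes had all DDK livers above all vehicle livers, against 14.1% of all genes, and 3 had all DDK livers below, against 39.2%. Relative to the median of all genes, the import genes stood 0.56 higher as deposited, 0.64 after median-ratio scaling, 0.60 under TPM and 0.30 after length correction.

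The livers of a group were not alike. In the 3 genes that fell, DDK replicate 2 was the lowest and DDK replicate 3 the highest DDK liver, and vehicle replicate 1 was the lowest vehicle liver. Timm21 had the same order. Among the 11 genes that rose, vehicle replicate 1 was the highest vehicle liver in 9, and DDK replicate 3 the lowest DDK liver in 9. Genes in both directions thus placed the same livers nearest to the other group. Without vehicle replicate 1, 14 import genes rose and 4 fell, where 12.7% and 40.5% of all genes did.

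Summed cell type markers did not overlap between the groups for hepatocytes, macrophages and Kupffer cells, stellate cells and neutrophils. For the other cell types the sums overlapped. Of all genes tested, 10.2% were higher and 30.3% lower in DDK, against which the counts of markers below are to be read. The 10 hepatocyte markers (among them Alb, Apoa1 and Hnf4a) summed to 63494 to 66676 FPKM in DDK and 39273 to 50646 in vehicle, with 3 of 10 higher and 1 lower. Macrophage and Kupffer cell markers summed to 153 to 387 FPKM in DDK and 502 to 838 in vehicle, with 6 of 10 lower, and stellate cell markers to 59.8 to 83.9 in DDK and 134 to 174 in vehicle, with 6 of 8 lower. Endothelial markers had 3 of 6 lower (26.4 to 41.1 FPKM in DDK, 35.8 to 60.8 in vehicle) and cholangiocyte markers 1 of 5 higher (36.3 to 62.1 in DDK, 46.4 to 68.7 in vehicle). Neutrophil markers summed to 2.38 to 8.32 FPKM in DDK and 10.3 to 13.6 in vehicle, with 1 of 2 tested lower. T and NK cell and B cell markers summed to at most 4.71 and 3.68 FPKM in any liver. Muscle markers summed to at most 17.6 and pancreas markers to at most 20.2, and Prss2 and Cpa1 were at 0. In bulk liver, fewer cells of a type and less RNA per cell cannot be told apart, and the part of the cell mixture in the import gene values was not tested.

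Other genes of import and of protein quality control, taken from a list of 63, changed in both directions. Of 62 tested, 11 rose (17.7%, against 10.2% of all genes) and 23 fell (37.1%, against 30.3%), with a median log2 fold change of -0.32, against -0.23 for all genes. After length correction 10 rose (16.1%, against 16.1%) and 14 fell (22.6%, against 17.3%). After median-ratio scaling 13 rose (21.0%, against 18.4%) and 7 fell (11.3%, against 15.4%), so which direction had more calls depended on the scaling. In the import motor, which pulls presequence proteins into the matrix, genes changed in both directions as well. The motor chaperone Hspa9 (mortalin) had 125 ± 24.0 FPKM in DDK and 179 ± 25.7 in vehicle (log2 fold change -0.52, adjusted p = 0.0339), and the nucleotide exchange factors Grpel1 (-0.45, 0.0161) and Grpel2 (-0.43, 0.0395) fell too. The J-protein regulator Pam16 had 61.4 ± 5.35 FPKM in DDK and 35.9 ± 9.23 in vehicle (0.78, adjusted p = 0.00760), Romo1, a small inner membrane subunit, rose by 0.77 (0.0125), and the J-protein Dnajc15 by 0.50 (0.0150). In all, 5 of 8 motor genes rose (62.5%, against 10.2% of all genes) and 3 fell (37.5%, against 30.3%). After length correction 2 rose and 0 fell, and after median-ratio scaling 5 rose and 0 fell. With the length correction Pam16 stood at 0.18, Romo1 at 0.25 and Dnajc15 at 0.0023, and with median-ratio scaling Hspa9 stood at -0.21, Grpel1 at -0.15 and Grpel2 at -0.14, none of which passed. The calls of Hspa9, Grpel1, Grpel2, Pam16, Romo1 and Dnajc15 ended in 8, 8, 10, 2, 4 and 6 of 16 alternatives.

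Processing enzymes went both ways. Both subunits of the matrix processing peptidase that removes presequences fell: Pmpca had 9.75 ± 0.968 FPKM in DDK and 18.01 ± 2.29 in vehicle (log2 fold change -0.82 ± 0.14, adjusted p = 0.00303), a call kept in all alternatives, and Pmpcb had 63.8 ± 6.47 in DDK and 101 ± 7.47 in vehicle (-0.66, adjusted p = 0.00434), a call lost in 1 of 16. The peptidase Xpnpep3 fell (-0.51, adjusted p = 0.0392, lost in 10), and the inner membrane peptidase genes Immp1l (0.41, 0.0215, lost in 8) and Immp2l (0.52, 0.0458, lost in 6) rose. Of 3 genes of the disulfide relay that folds small TIMs, Chchd4, the oxidoreductase, fell (7.71 ± 1.01 FPKM in DDK and 12.9 ± 0.524 in vehicle, -0.68, adjusted p = 0.00516, lost in 1), and so did its partner Aifm1 (-0.47, 0.0148, lost in 6). These 2 were 66.7% of a short list, against 30.3% of all genes. After median-ratio scaling 0 of the 3 fell.

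Among 7 genes of outer membrane sorting and insertion, 1 rose, Mtx1 (0.46, adjusted p = 0.0350, lost in 8 of 16), and 1 fell, Mtch1 (24.2 ± 1.69 FPKM in DDK and 40.2 ± 3.26 in vehicle, log2 fold change -0.71, adjusted p = 0.00305, kept in all). Of 4 inner membrane insertion genes only Agk fell, the lipid kinase that is also a TIM22 subunit (0.969 ± 0.304 FPKM in DDK and 2.08 ± 0.689 in vehicle, -0.63, adjusted p = 0.0272, lost in 9).

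In the matrix, Clpp, a protease, rose (87.2 ± 8.50 FPKM in DDK and 48.0 ± 12.4 in vehicle, log2 fold change 0.87, adjusted p = 0.00535), and 4 of 9 genes fell, led by the inner membrane protease subunits Afg3l2 (-0.71, 0.00589) and Spg7 (-0.62, 0.00680, lost in 1 of 16) and the chaperone Trap1 (-0.54, 0.00682, lost in 2). The matrix genes that fell were 44.4% of their list, against 30.3% of all genes. After median-ratio scaling 11.1% fell, against 15.4%. Of 9 cytosolic delivery genes 2 fell after median-ratio scaling (22.2%, against 15.4%). Without that scaling 5 of the 9 fell (55.6%, against 30.3%) and 0 rose. They were led by the chaperones Hsp90ab1 (241 ± 25.6 FPKM in DDK and 389 ± 8.61 in vehicle, -0.69, adjusted p = 0.00375, lost in 1 of 16), Dnaja1 (-0.88, 0.00449) and Hsp90aa1 (-1.22, 0.00589), which also serve many other clients. Of 5 tested genes of precursor clearance 2 fell, Ubqln2 (-0.78, adjusted p = 0.00549) and Atad1 (-0.82, 0.0142, lost in 4 of 16), the extractor of mislocalised membrane proteins. They were 40% of the genes tested, against 30.3% of all genes. After median-ratio scaling 40% fell too, against 15.4%. Among 11 regulators of mitochondrial genes, Esrra (0.48, adjusted p = 0.0156, lost in 4) and Atf4 (0.36, 0.0409, lost in 7) rose, and Atf5 (-0.59, 0.0106, lost in 2) and Gabpa (-0.77, 0.0238, lost in 9) fell. Each direction held 18.2% of this list, where 10.2% of all genes rose and 30.3% fell. After length correction 4 rose (36.4%, against 16.1%) and 1 fell (9.09%, against 17.3%). After median-ratio scaling 2 rose (18.2%, against 18.4%) and 0 fell (against 15.4%).

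**Figure D5:**
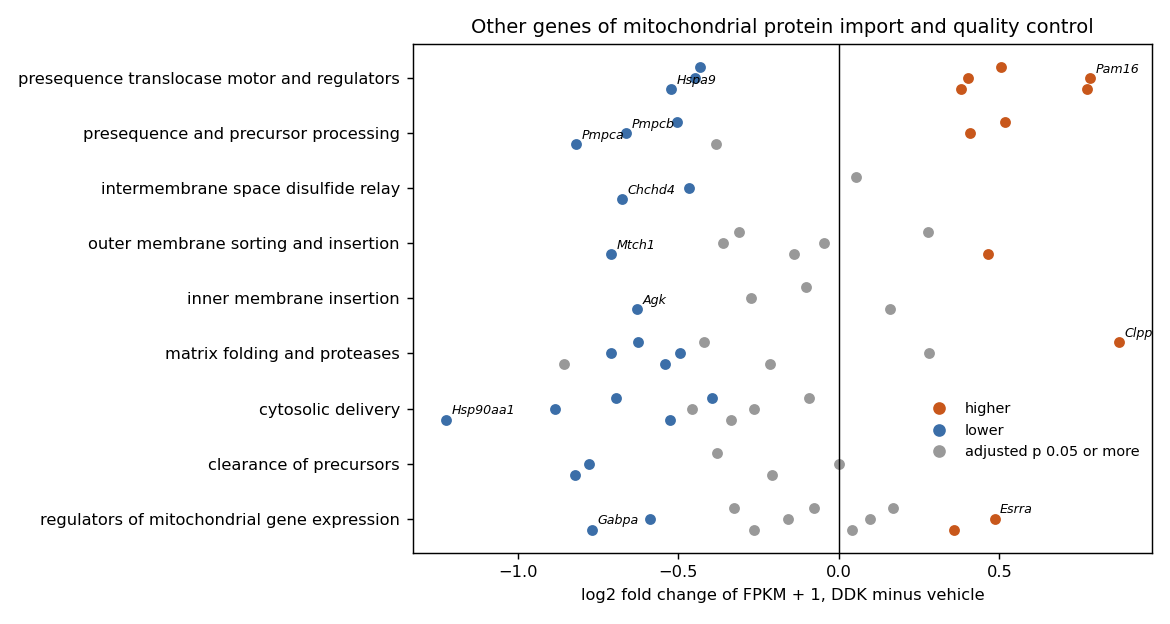
Log2 fold change of FPKM + 1 (DDK minus vehicle) of 62 other genes of mitochondrial import and quality control, 1 row per list, with genes that passed the threshold coloured by direction. The motor row has 5 higher and 3 lower genes, and the cytosolic delivery row has 5 lower and 0 higher. Of all genes tested, 10.2% were higher and 30.3% lower.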

How the data were processed

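Liver RNA of 6 mice was sequenced, and libraries were assigned to DDK or vehicle from their titles (3 each). Per the labels' protocols, libraries were made with a NEBNext Ultra kit. The deposited FPKM values of 22173 symbols were made by the authors on GRCm38 (mm10), per the submitters' processing notes. The aligner, the counting program and the annotation are each not given in the sources used here.

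FPKM keep the depth. Whole gene lengths and library totals were found with which all 16573 symbols above 0 gave whole fragments in every library (within 0.01). Most lengths were searched for to meet this condition, so meeting it does not test them. Only 523 symbols had the exon union length of GENCODE M21, among the tested import genes Timm29 alone. The recovered fragments and the length correction rest on these lengths. The totals were 26576291 to 30237490 fragments in DDK and 33963898 to 36105315 in vehicle. Between replicates of a group the chi-square per gene was 21.0 to 138, far above counting error.

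Values were tested as log2(FPKM + 1) across all genes with limma 3.58.1 (R 4.3.3), with a variance trend and Benjamini-Hochberg adjustment, two-sided, after a filter (0.5 FPKM or more in 3 or more libraries, 10681 genes). Fold changes on this scale understate changes of low genes. The procedure was also run on simulated data, but the outcome is not given here and is no check on the calls. Values in every liver are given for up to 6 called members in each direction with the largest change and for the receptor, channel and motor subunits. Of each other list up to 3 called genes per direction, those with the smallest p, are given as group means or fold changes. Timm21, Sdhd, Nr1i3 and Tomm20l were added after their values were seen. Members and lists were chosen with earlier results of these data known.

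Alternatives were a pseudocount of 0.1, no filter, a filter at 1, median-ratio scaling, quantile normalization, TPM, a length correction (lowess, span 0.3), voom on the recovered fragments, the replicate number as a block and each library left out in turn. Length correction after median-ratio scaling was chosen after seeing the data. Positions are GENCODE M21 (GRCm38), copies were sought with BLAST 2.17.0, and start regions are RefSeq's on GRCm38.p6. The median-ratio factors of DDK libraries ran from 0.867 to 0.933 and those of vehicle libraries from 1.02 to 1.22. The listed gene March5 was not analysed here.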

Additional observations from a re-analysis of the deposited data

How the results depend on the processing

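The 3 import genes that fell (Timm23, Tomm20 and Timm29) and 3 that rose (Timm9, Tomm22 and Tomm7) kept direction and call in all 16 alternatives. The number that rose was 7 under TPM, and 5 to 14 when each library was left out in turn. It was within 1.5 times of 11 under the other 9 alternatives, and the number that fell was 3 or 4 throughout. Voom on the recovered fragments called 1030 genes higher and 3209 lower of all tested, against 1093 and 3234. The Tomm median minus the Timm median was 0.20, and 0.31 after length correction (0.32 after median-ratio scaling as well). The cause of these moves was not tested, although leaving out a library also leaves fewer samples.

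Signs turned for genes that had not passed and for Timm10. Length correction gave -0.030 for Timm10, -0.30 for Timm8b and -0.070 for Timm8a1, and after median-ratio scaling as well -0.018, -0.29 and -0.051. Median-ratio scaling and quantile normalization gave 0.26 and 0.13 for Timm17a. TPM gave -0.20 for Timm17b, -0.21 for Timm8a1 and -0.16 for Tomm70a. Leaving out each library gave -0.095 to 0.028 for Timm17a, -0.036 to 0.16 for Timm17b and -0.032 to 0.065 for Timm8a1.

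The deviations of same-numbered livers correlated at 0.14, -0.15 and 0.06 for numbers 1 to 3, and those of different-numbered livers at -0.21 to 0.21. With 3 livers per group, these values cannot decide whether the numbers mark pairs. With the replicate block, 11 import genes rose and 3 fell, as without it. The 3 livers a group limit the precision. Depth was not the limit for any tested member, since the fewest fragments in a library were 275.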
